A study of Mus musculus with 12 samples.

Results

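The genes described here are 46 genes of DNA replication and nucleotide synthesis, a list set by name: the origin recognition complex, the licensing factors, the MCM helicase and its activators, the sliding clamp and its loader, the replicative polymerases and primase, the single-strand binding protein, the enzymes that join Okazaki fragments, and 5 genes of nucleotide synthesis. Each was found by its symbol in the probe table of the array and is represented by its brightest probe set, the one with the highest mean log2 intensity over 12 tumors. All 46 were on the array, among 18193 genes with a probe set of their own, and all 46 were among the 12735 genes bright enough to be tested.

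The tumors were grown from LLC cells (Lewis lung carcinoma, a transplantable mouse lung cancer line) under the skin of female C57BL/6 mice that were 6 to 8 weeks old at injection, and each group holds 3 tumors. 1D11_radiation tumors received 1D11, an antibody that neutralizes TGF-beta, together with radiation. Radiation tumors received radiation with 13C4, the isotype control antibody of 1D11, 1D11 tumors received 1D11 alone, and control tumors received 13C4 alone, so every mouse was given an antibody and no group is untreated. The labels disagree on the dose: 5 fractions of 6 Gy in 1 field and 2 Gy in another. The time from the last fraction to collection on day 19 is not given in the sources used here. The material is 1 cell line in whole tumors with host cells in them, and the labels do not say whether each tumor came from its own mouse, so p-values measure the spread between these tumors. In such bulk RNA, fewer cycling cells and less replication RNA per cell cannot be told apart.

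Before S phase, the origin recognition complex, Cdc6 and Cdt1 load the ring of Mcm2 to Mcm7 onto origins, and Cdc45 and the GINS complex then turn the ring into an active helicase. Behind it, polymerase alpha with primase starts each strand, replication factor C places the sliding clamp Pcna, and polymerases delta and epsilon extend the strands from deoxynucleotides made by ribonucleotide reductase, thymidylate synthase and thymidine kinase. Most of these genes are transcribed under E2F factors as cells pass from G1 into S phase, which is why they serve as a measure of proliferation in tumors, and ionizing radiation is known to hold this transition through p53 and the retinoblastoma proteins.

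Levels are given as log2 intensity, the logarithm of the deposited brightness of a probe set, which compares 1 gene between tumors but not 1 gene with another. Across the 12 tumors the median member spanned 0.43 on the log2 scale from its lowest to its highest tumor, a 1.35-fold range, against 0.47 and 1.39-fold for the median of all genes tested. The probe sets of members had a median mean log2 intensity of 9.97 against 8.63 for all genes tested, which describes probe set brightness and not RNA amounts. The range stayed under 2-fold in 46 of 46 members and in 90.8% of all genes tested. Within groups, the median residual SD was 0.118 in members and 0.122 in all genes. Rpa1, a subunit of the single-strand binding protein, had the smallest residual SD (0.062), and thymidylate synthase, Tyms, which lay close above the brightness limit of 5.37, had the largest (0.285).

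Control replicate 1 stood apart from the other 11 tumors in these genes. It was the highest of the 12 tumors for 30 of 46 members, and for 16.1% of all genes tested. Its member score, the mean over the 46 genes of each gene's log2 value minus that gene's mean, was 0.207, against -0.090 to 0.060 in the other 11 tumors. The same tumor had the lowest score for p53 target genes, -0.689, and the lowest array weight in limma, 0.297. The summed linear intensity of 15 skeletal muscle markers, all 15 of them measured, ran from 2696 to 10451 in 1D11_radiation tumors, from 7516 to 31383 in radiation tumors, from 6198 to 9948 in 1D11 tumors and from 3131 to 21175 in control tumors, with the highest values in radiation replicate 3 and control replicate 1. The part of this signal in the replication genes was not tested. For comparisons whose changes use the control tumors, the counts and medians of the 46 genes are also given without control replicate 1. Array medians lay between 62.3 and 66.1 in linear intensity. A list of 10 genes holds epithelial and lung markers and the mesenchymal gene Vim. Of these, Krt8, Krt18 and Vim were bright in every tumor, and Krt19, Epcam and Sftpb had log2 intensities from 4.90 to 7.43. Cdh1, Nkx2-1, Sftpc and Scgb1a1 were below the brightness limit on average.

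**Figure D1:**
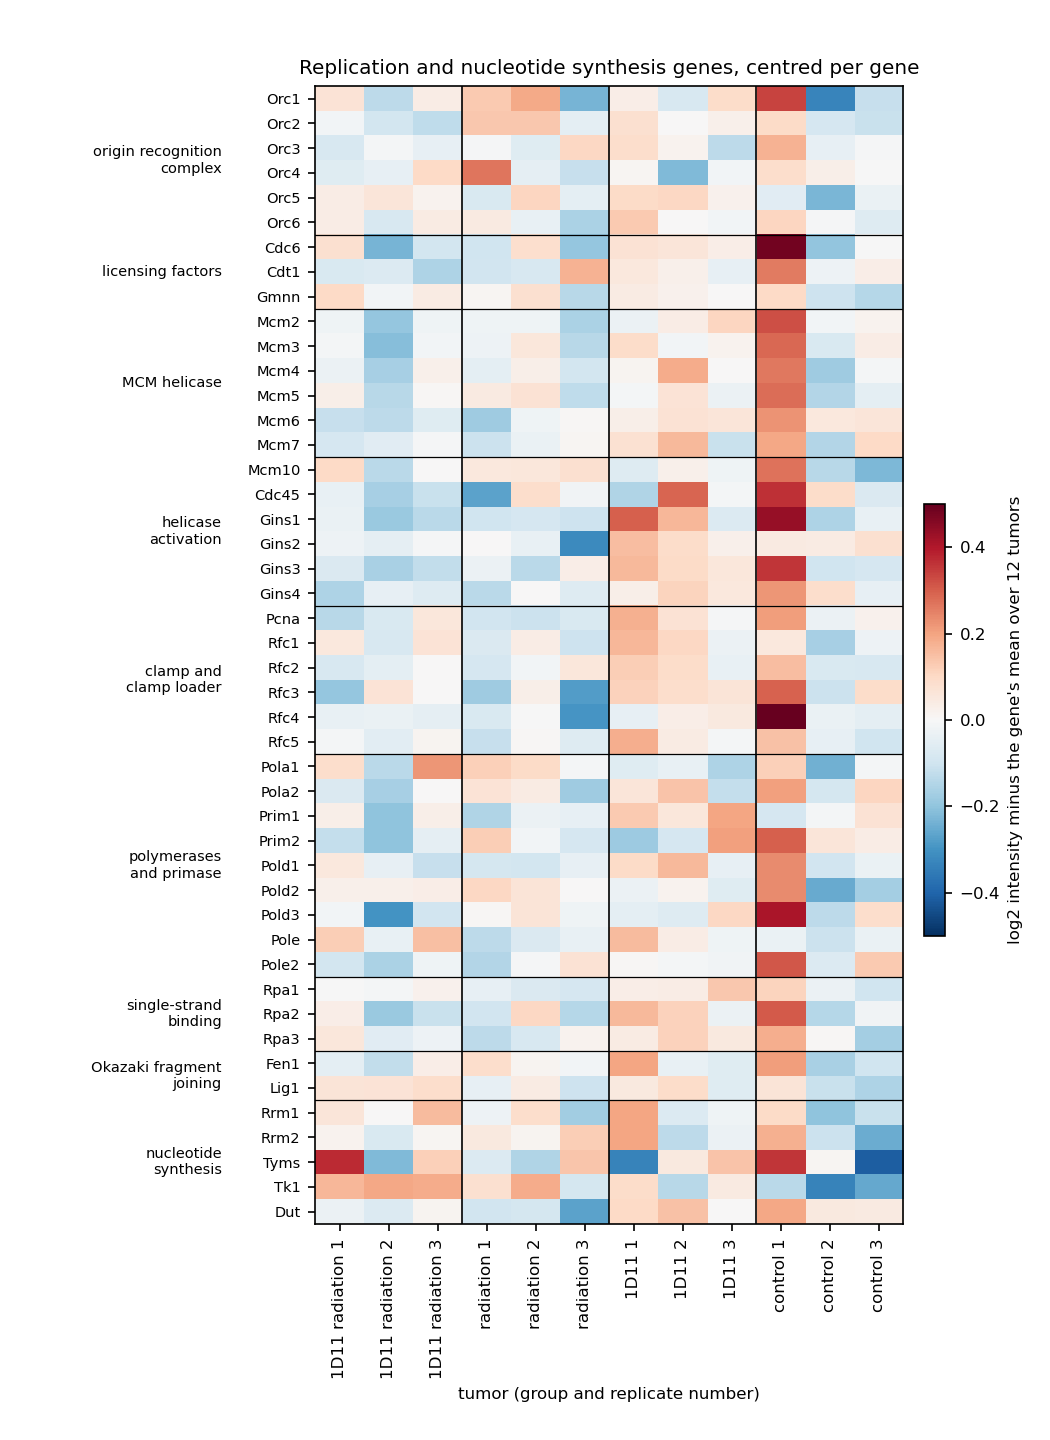
Each row is a gene and each column a tumor, and the colour is the gene's log2 intensity minus its mean over the 12 tumors, with shades ending at the limits of the colour bar. Control replicate 1 is the highest tumor in 30 of 46 rows, and the Tk1 row is high in the 3 1D11_radiation tumors and low in the control tumors.

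Radiation was first compared over both antibodies, 6 irradiated tumors (3 1D11_radiation and 3 radiation) against 6 unirradiated ones (3 1D11 and 3 control). Of the 46 replication genes, 1 passed the test: Tk1, the cytosolic thymidine kinase that salvages thymidine, rose by 0.24 ± 0.06 (log2 change ± SE, limma, adjusted p = 0.0394), a 1.18-fold higher intensity. Across all genes tested, 7.26% passed in this comparison. The other members leaned to lower values in irradiated tumors, at sizes that did not pass: 34 of 46 had a negative change (73.9%, against 54.7% of all genes), and the median member stood at -0.082, against -0.014 for all genes. Without control replicate 1 29 of 46 changes were negative and 17 positive (46.6% of all genes were positive), the median was -0.035 (all genes -0.010), and 2 genes passed, Tk1 and Pold2. At an unadjusted p under 0.05 there were 7 members (15.2%), against 24.3% of all genes. The 95% interval of the change lay within 1.5-fold either way in 46 of 46 members, and in 92.1% of all genes.

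**Figure D2:**
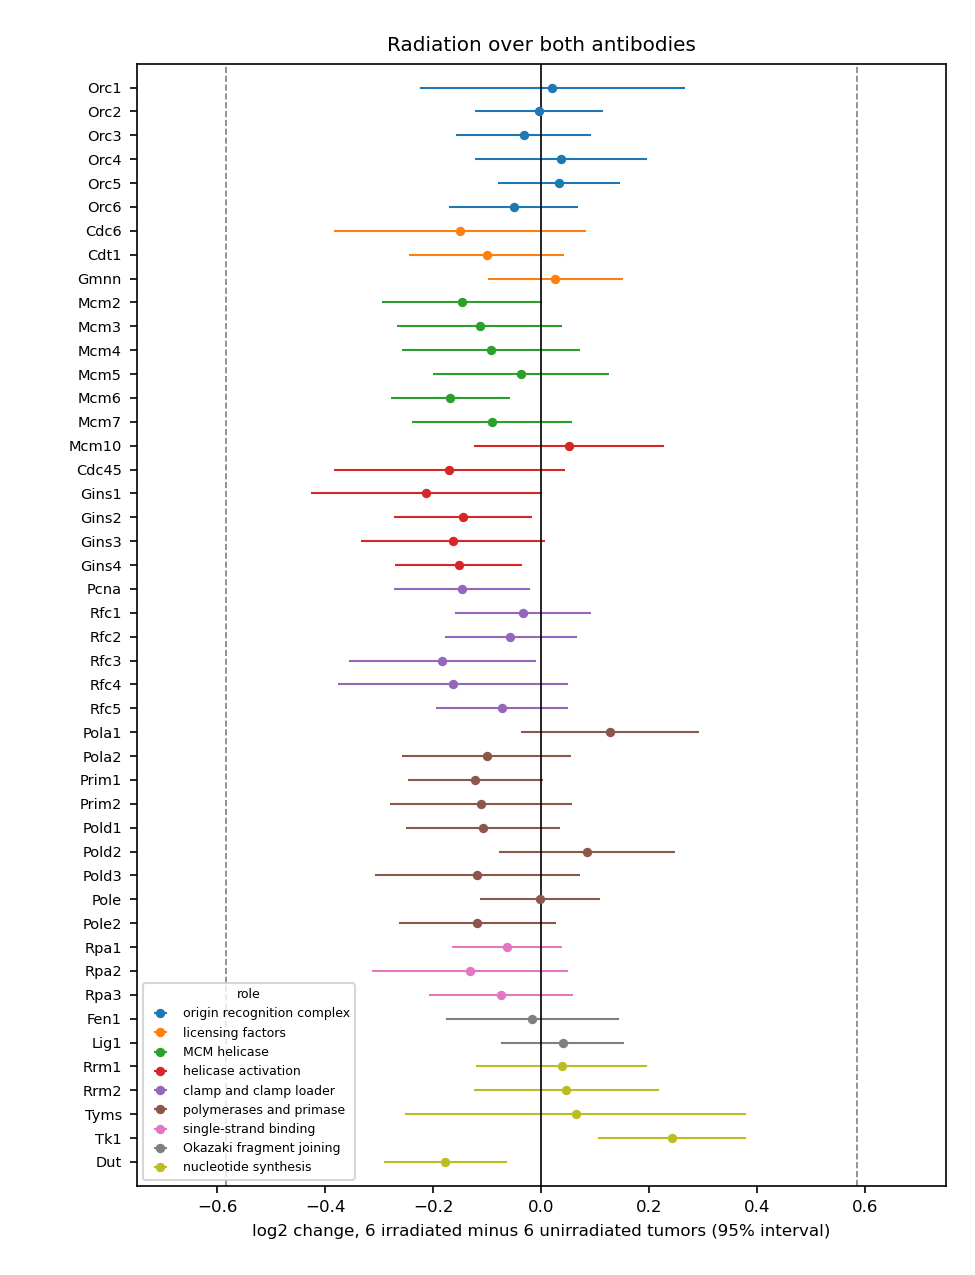
Points are log2 changes of the 46 genes, irradiated minus unirradiated tumors over both antibodies (6 against 6), bars are 95% intervals and colours mark the role of the gene. Dashed lines mark a 1.5-fold difference either way, and all 46 intervals lie between them, with Tk1 the highest point at 0.24 and Gins1 the lowest at -0.21 when all 12 tumors are used.

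Tk1 had log2 intensities of 10.15, 10.18 and 10.18 in 1D11_radiation tumors, 10.07, 10.18 and 9.90 in radiation tumors, 10.08, 9.85 and 10.03 in 1D11 tumors, against 9.86, 9.66 and 9.73 in control tumors. The 3 1D11_radiation tumors lay within a narrow band above all control tumors and all 1D11 tumors, and the radiation tumors overlapped the 1D11 tumors. Each treated group was also above all 3 control tumors, apart from 1D11 replicate 2, which lay just under the highest control tumor. Against control tumors, Tk1 rose by 0.42 ± 0.09 in 1D11_radiation tumors (adjusted p = 0.0394), while the difference was 0.30 ± 0.09 in radiation tumors (adjusted p = 0.0982) and 0.24 ± 0.09 in 1D11 tumors (adjusted p = 0.271). Tk1 is represented by a single probe set, so no other probe set bears on it. The call of 1D11_radiation against control was lost without control replicate 2 or 3, 1D11 replicate 3, radiation replicate 1 or any of the 3 1D11_radiation tumors (adjusted p from 0.0555 to 0.11). The call of the 6 against 6 comparison was lost without any single tumor other than control replicate 1, 1D11 replicate 1 or radiation replicate 3 (adjusted p from 0.0661 to 0.094), and both calls were lost with no filter on dim genes (adjusted p = 0.0504 and 0.0543). The call of 1D11_radiation against control was also lost with these 2 groups fitted alone (adjusted p = 0.1), where 0.00785% of all genes passed.

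Promoter sequence is shown for Tk1 because it is the only member called, and for Mcm6, chosen after its values were seen. On the brightest probe set of Mcm6 all irradiated tumors lay below the unirradiated ones. Sequences are the 250 bases upstream of the annotated start from RefSeq on GRCm38.p6, 5′ to 3′ on the gene's own strand, with matches in capitals. The words searched on both strands were TTTCCCGC, TTTGGCGC, TTTCGCGC and TTTGCCGC for E2F-type sites and CCAAT for the site of the factor NF-Y. The Tk1 stretch lies at chr11:117826015-117826264 on the minus strand and the Mcm6 stretch at chr1:128359706-128359955 on the minus strand.
Tk1: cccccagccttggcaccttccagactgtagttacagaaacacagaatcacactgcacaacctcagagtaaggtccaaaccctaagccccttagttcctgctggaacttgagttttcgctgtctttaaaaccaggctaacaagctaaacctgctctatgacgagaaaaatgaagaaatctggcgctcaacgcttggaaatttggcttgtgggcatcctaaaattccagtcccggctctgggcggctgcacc
Mcm6: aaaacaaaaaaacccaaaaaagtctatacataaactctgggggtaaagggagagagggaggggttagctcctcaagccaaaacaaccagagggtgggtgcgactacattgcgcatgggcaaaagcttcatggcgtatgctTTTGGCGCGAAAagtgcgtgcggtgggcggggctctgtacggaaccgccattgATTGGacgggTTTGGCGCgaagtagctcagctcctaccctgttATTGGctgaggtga
The Tk1 stretch held none of these words. The Mcm6 stretch held 3 E2F-type words, of which 2 overlap in the first capital run, and CCAAT on the opposite strand, written ATTGG, at 2 places. Of the 38 members with a promoter in the table, 9 held an E2F-type word (23.7%, against 2.16% of 27025 genes) and 23 held CCAAT (60.5%, against 37.5%). A match describes letters in this window and not a bound site.

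None of the other 4 nucleotide synthesis genes passed the test. Dut, the enzyme that breaks down dUTP and so keeps uracil out of DNA, had 11.69, 11.65 and 11.73 in 1D11_radiation tumors, 11.62, 11.63 and 11.45 in radiation tumors, 11.82, 11.87 and 11.72 in 1D11 tumors, against 11.91, 11.77 and 11.76 in control tumors. In Dut all 3 radiation tumors were below every 1D11_radiation tumor and every unirradiated tumor, while 1D11_radiation replicate 3 reached into the range of the 1D11 tumors. The change over both antibodies was -0.18 ± 0.05 (adjusted p = 0.0616). Dut has a second, dimmer probe set, for which log2 intensities were 6.67, 6.42 and 6.35 in 1D11_radiation tumors, 6.33, 6.38 and 6.40 in radiation tumors, 7.23, 7.18 and 6.65 in 1D11 tumors, against 7.17, 6.96 and 6.91 in control tumors. On this probe set all 6 irradiated tumors except 1D11_radiation replicate 1 were below every unirradiated tumor. When each probe set was tested on its own, an alternative added after seeing the data, it changed by -0.59 ± 0.10 over both antibodies (adjusted p = 0.0115), and the brighter one had -0.18 ± 0.05 (adjusted p = 0.0755). The subunits of ribonucleotide reductase, which makes deoxynucleotides, had changes of 0.04 for Rrm1 and 0.05 for Rrm2, and Tyms had 0.06 ± 0.14 (adjusted p = 0.833).

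The MCM helicase, the ring that unwinds DNA ahead of the fork, had negative changes over both antibodies in all 6 subunits, from -0.17 in Mcm6 to -0.04 in Mcm5 with a median of -0.104. These are the brightest probe sets, and in Mcm3, Mcm5 and Mcm7 another tested probe set had the opposite sign. With control replicate 1 left out, 5 of 6 were negative with a median of -0.059, and Mcm5 had 0.02. In limma 0 of 6 passed, and 1, Mcm6, had an unadjusted p under 0.05. Mcm6 had 11.97, 11.96 and 12.02 in 1D11_radiation tumors, 11.91, 12.06 and 12.09 in radiation tumors, 12.12, 12.16 and 12.15 in 1D11 tumors, against 12.31, 12.14 and 12.15 in control tumors. Every irradiated tumor lay below every unirradiated tumor, by a gap between radiation replicate 3 and 1D11 replicate 1. The change was -0.17 ± 0.05 (adjusted p = 0.0663), a 0.890-fold intensity. Of the 46 members, 2 had 6 irradiated tumors all below the 6 unirradiated ones (4.35%, against 2.41% of all genes tested), and none had them all above (1.95% of all genes). A second probe set of Mcm6 had a change of -0.20 ± 0.09 (adjusted p = 0.212). On it irradiated and unirradiated tumors overlapped: radiation replicate 1 (11.33) was above all 1D11 tumors (11.05, 11.20 and 11.29).

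The other of these 2 members was Gins2, a subunit of the GINS complex that activates the helicase, with 8.96, 8.94 and 8.98 in 1D11_radiation tumors, 8.99, 8.95 and 8.67 in radiation tumors, 9.14, 9.08 and 9.01 in 1D11 tumors, against 9.03, 9.03 and 9.07 in control tumors. Radiation replicate 3 was the lowest Gins2 value and the other 5 irradiated tumors lay close together, just under the unirradiated ones. The change was -0.14 ± 0.06 (adjusted p = 0.151). Of the 6 activation factors, 5 had negative changes, with a median of -0.158, but another tested probe set of Cdc45 had the opposite sign. Gins1 had -0.21 ± 0.10 (adjusted p = 0.208), the lowest change of the 46 members when all 12 tumors are used. With control replicate 1 left out, the median of the activation factors was -0.116, Gins1 had -0.12 ± 0.07, and the lowest member was Dut at -0.15. Gins4 had -0.15 ± 0.05 (adjusted p = 0.105) and Mcm10, which helps to switch the helicase on, had a positive change of 0.05.

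The sliding clamp and its loader had negative changes in all 6 genes, with a median of -0.110, or -0.052 when control replicate 1 was left out. Another tested probe set of Rfc2 had the opposite sign for radiation over both antibodies. Pcna, the clamp that tethers polymerases to DNA, had 12.82, 12.88 and 13.01 in 1D11_radiation tumors, 12.86, 12.85 and 12.88 in radiation tumors, 13.14, 13.03 and 12.95 in 1D11 tumors, against 13.17, 12.93 and 12.98 in control tumors. The 3 radiation tumors were within a narrow band below every control tumor, and 1D11_radiation replicate 3 lay within the unirradiated range. The Pcna change was -0.15 ± 0.06 (adjusted p = 0.142). Rfc3, a subunit of the loader, had 8.32, 8.58 and 8.51 in 1D11_radiation tumors, 8.33, 8.54 and 8.23 in radiation tumors, 8.63, 8.60 and 8.57 in 1D11 tumors, against 8.80, 8.40 and 8.60 in control tumors. Its groups overlapped, with radiation replicates 1 and 3 and 1D11_radiation replicate 1 the lowest, and its change was -0.18 ± 0.08 (adjusted p = 0.181).

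Among the 9 polymerase and primase genes, 7 had negative changes over both antibodies, and the median was -0.107. In Pola2, Pold3 and Pole2 another tested probe set had the opposite sign. When control replicate 1 was left out, 6 of the 9 genes had negative changes and the median was -0.057. Pola1, the catalytic subunit of polymerase alpha, and Pold2, an accessory subunit of polymerase delta, had positive ones of 0.13 ± 0.08 (adjusted p = 0.335) and 0.09 ± 0.07 (adjusted p = 0.54). Pold2 had 10.40, 10.40 and 10.41 in 1D11_radiation tumors, 10.48, 10.44 and 10.38 in radiation tumors, 10.35, 10.39 and 10.31 in 1D11 tumors, against 10.61, 10.12 and 10.21 in control tumors. Control replicate 1 was the highest tumor, and the other control tumors were the lowest. Without control replicate 1, Pold2 rose by 0.16 ± 0.04 over both antibodies (adjusted p = 0.046). The 3 single-strand binding genes had negative changes, from -0.13 in Rpa2 to -0.06 in Rpa1, with a median of -0.074 (-0.034 when control replicate 1 was left out). Of the joining enzymes, the flap nuclease Fen1 had -0.02 and the ligase Lig1 had 0.04, and both were positive (0.04 and 0.07) when control replicate 1 was left out. The origin recognition complex was split, with 3 positive and 3 negative changes between -0.05 in Orc6 and 0.04 in Orc4, but 5 were positive, with a median of 0.036, when control replicate 1 was left out. Of the licensing factors, Cdc6 and Cdt1, which load the helicase, had -0.15 and -0.10 (-0.05 and -0.06 when control replicate 1 was left out), and Gmnn, which binds Cdt1 and blocks reloading, had 0.03.

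**Figure D3:**
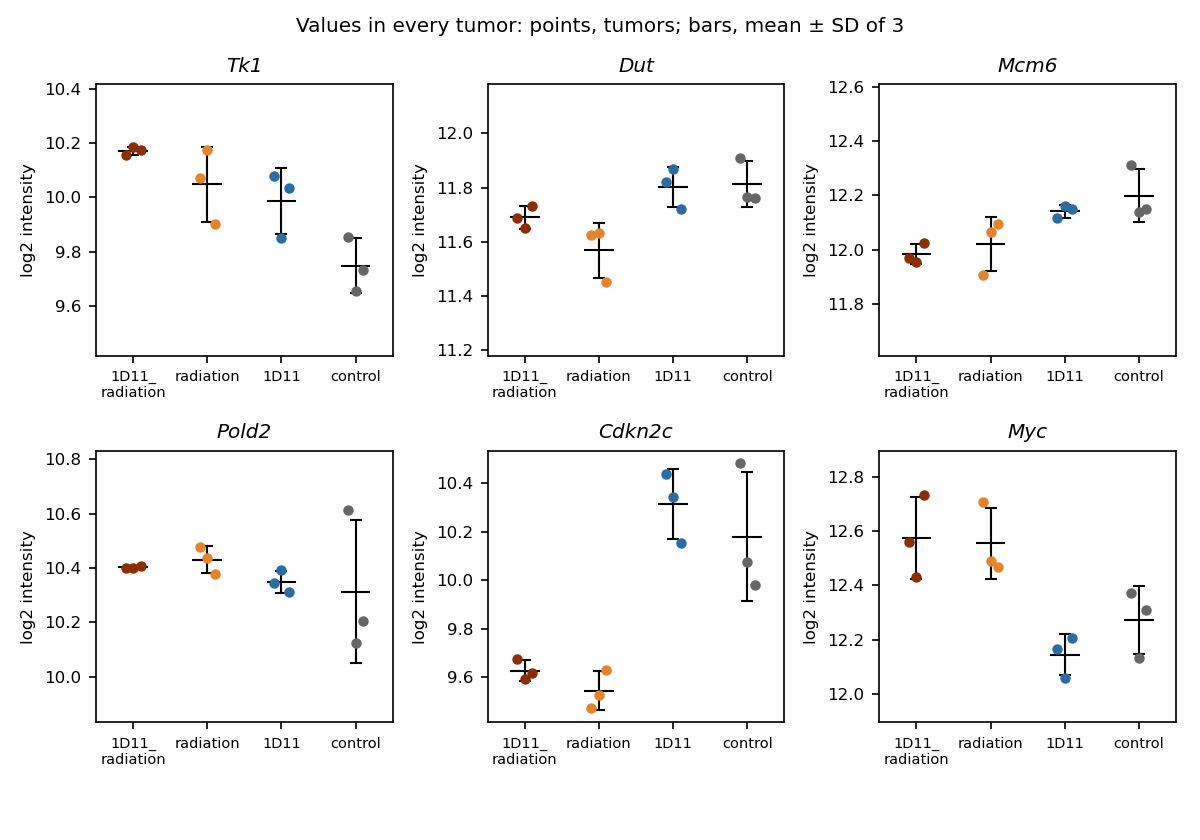
Points are log2 intensities of single tumors and bars are the mean ± SD of 3, for 4 replication genes and the G1/S regulators Cdkn2c and Myc, in the order 1D11_radiation, radiation, 1D11 and control, with a vertical scale of its own in each panel. Tk1 is highest in 1D11_radiation and lowest in control tumors, all irradiated tumors lie below the unirradiated ones in Mcm6 and Cdkn2c, and above them in Myc.

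Under the control antibody alone, radiation was compared with control tumors, 3 against 3. None of the 46 members passed limma's test, where 2.39% of all genes did, and 3 members had an unadjusted p under 0.05 (6.52%, against 18.7% of all genes). With all tumors, 12 of 46 were higher in radiation tumors and 34 lower (26.1% and 73.9%, against 49.6% and 50.4% of all genes), with a median of -0.066 (all genes -0.002). Without control replicate 1, 26 were higher and 20 lower (51.7% of all genes were higher), with a median of 0.020 (all genes 0.007), and 14 genes changed sign, so the direction of the list in this comparison rests on that tumor. Then Pold2 passed (0.27 ± 0.06, adjusted p = 0.0484), and without radiation replicate 3 Tk1 passed (0.37, adjusted p = 0.049). The shares of all genes that passed in these fits are not given here. Across all alternatives, from 6 to 890 genes passed in this comparison, against 304 as reported. Dut, Mcm6 and Rfc3 had the smallest p among the lower members, with -0.24 ± 0.07 (adjusted p = 0.107), -0.18 ± 0.07 (adjusted p = 0.21) and -0.24 ± 0.11 (adjusted p = 0.284). These became -0.19, -0.12 and -0.14 without control replicate 1. The 3 radiation tumors lay below all control tumors in 5 members (10.9%, against 10% of all genes) and above them in 1, Tk1 (2.17%, against 10.6%).

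Orc5 and Orc2, subunits of the origin recognition complex, came after Tk1 among the higher members. Orc5 had 9.08, 9.10 and 9.06 in 1D11_radiation tumors, 8.96, 9.15 and 8.99 in radiation tumors, 9.13, 9.14 and 9.06 in 1D11 tumors, against 8.98, 8.81 and 9.01 in control tumors. Control replicate 2 was the lowest tumor, and the control tumors overlapped the radiation tumors (0.10 ± 0.07, adjusted p = 0.493). Orc2 had 9.47, 9.39 and 9.36 in 1D11_radiation tumors, 9.62, 9.62 and 9.44 in radiation tumors, 9.56, 9.49 and 9.51 in 1D11 tumors, against 9.58, 9.40 and 9.37 in control tumors. Radiation replicates 1 and 2 were the highest, while radiation replicate 3 lay within the control range (0.11 ± 0.08, adjusted p = 0.497). All 46 intervals lay within 1.5-fold, as did 85% of all genes, with the lowest bound 0.671-fold in Rfc4 and the highest 1.41-fold in Tk1.

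**Figure D4:**
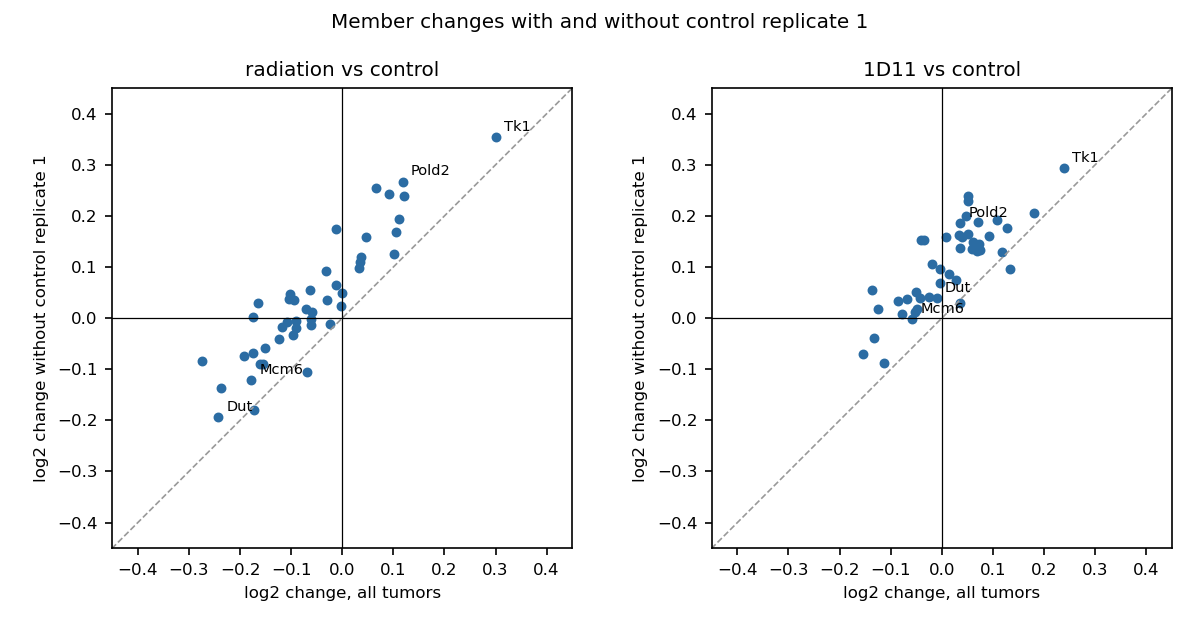
Each point is 1 of the 46 genes, with its log2 change over all tumors on the horizontal axis and without control replicate 1 on the vertical axis, for radiation against control (left) and 1D11 against control (right). The dashed line marks equal values. Most points lie above it, and the number of genes higher than control goes to 26 of 46 on the left and 42 of 46 on the right when that tumor is left out.

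Under TGF-beta neutralization, 1D11_radiation tumors were compared with 1D11 tumors. The control tumors do not enter the changes here, but they enter the estimate of spread that all groups share, and so the p-values and intervals. No member passed limma's test (0.0785% of all genes did), and 1 had an unadjusted p under 0.05 (2.17%, against 15.5% of all genes). There were 10 higher and 36 lower members (78.3% lower, against 57.6% of all genes), with a median of -0.089 (all genes -0.026), and in 45 members the interval lay within 1.5-fold (86.2% of all genes). Leaving out single tumors kept the median between -0.107 and -0.058. Mcm6 had the smallest p (-0.16 ± 0.07, adjusted p = 0.317, and from 0.213 to 0.573 with single tumors left out). All 3 1D11_radiation tumors were below all 1D11 tumors in Mcm6. Over the list, 9 members had such a separation downward (19.6%, against 16.5% of all genes) and 2 upward (4.35%, against 9.59%), these being Tk1 and Pold2.

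Prim1, the catalytic subunit of primase, had 10.37, 10.14 and 10.37 in 1D11_radiation tumors, 10.19, 10.31 and 10.30 in radiation tumors, 10.47, 10.40 and 10.54 in 1D11 tumors, against 10.26, 10.33 and 10.42 in control tumors. 1D11_radiation replicate 2 was the lowest and all 1D11_radiation tumors were below the 1D11 tumors (-0.18 ± 0.08, adjusted p = 0.325). Gins3, another GINS subunit, had 7.47, 7.38 and 7.42 in 1D11_radiation tumors, 7.51, 7.40 and 7.57 in radiation tumors, 7.70, 7.63 and 7.60 in 1D11 tumors, against 7.90, 7.44 and 7.46 in control tumors. Control replicate 1 was the highest of all, and the 1D11_radiation tumors lay below the 1D11 tumors (-0.22 ± 0.11, adjusted p = 0.36). Pola1 had 9.64, 9.41 and 9.77 in 1D11_radiation tumors, 9.67, 9.64 and 9.54 in radiation tumors, 9.49, 9.51 and 9.39 in 1D11 tumors, against 9.67, 9.31 and 9.54 in control tumors. Its groups overlapped, with 1D11_radiation replicate 3 the highest tumor and 1D11_radiation replicate 2 among the lowest 3 (0.14 ± 0.11, adjusted p = 0.57, and -0.10 with the mean of its probe sets). Orc4 had 10.20, 10.21 and 10.35 in 1D11_radiation tumors, 10.52, 10.21 and 10.14 in radiation tumors, 10.27, 10.03 and 10.24 in 1D11 tumors, against 10.34, 10.28 and 10.25 in control tumors. Radiation replicate 1 was the highest and 1D11 replicate 2 the lowest, and the difference between 1D11_radiation and 1D11 tumors was 0.07 ± 0.10 (adjusted p = 0.797).

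In unirradiated tumors, 1D11 was compared with control. No member passed limma's test, where 0.0157% of all genes did, and 2 had an unadjusted p under 0.05 (4.35%, against 14.1%). The list was split, with 26 higher members (56.5%, against 62.1% of all genes) and 20 lower ones (43.5%, against 37.9%), and a median of 0.031, below the 0.042 of all genes. Without control replicate 1, 42 of 46 were higher (62.6% of all genes were), the median was 0.131 (all genes 0.046) and 0 members were called, while without control replicate 2 the median was -0.040, without control replicate 3 -0.014 and without 1D11 replicate 1 -0.006. The direction of the list under 1D11 alone therefore differed with which tumor was left out. Tk1 and Orc5 had the smallest p, and in Orc5 all 1D11 tumors were above all control tumors (0.18 ± 0.07, adjusted p = 0.311). With Pole that made 2 of 46 members separated upward (4.35%, against 12.1% of all genes) and 0 downward (6.95%). Prim1 came next at 0.13 ± 0.08 (adjusted p = 0.473).

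The lower members with the smallest p were Prim2, Pole2 and Orc4. Prim2, the regulatory subunit of primase, had 9.50, 9.42 and 9.57 in 1D11_radiation tumors, 9.74, 9.61 and 9.54 in radiation tumors, 9.44, 9.53 and 9.82 in 1D11 tumors, against 9.92, 9.68 and 9.66 in control tumors. The 1D11 tumors spread from the second lowest to the second highest value of the 12, and the difference to control was -0.15 ± 0.11 (adjusted p = 0.545). Pole2, an accessory subunit of polymerase epsilon, had 10.60, 10.53 and 10.67 in 1D11_radiation tumors, 10.55, 10.69 and 10.77 in radiation tumors, 10.70, 10.68 and 10.68 in 1D11 tumors, against 11.01, 10.63 and 10.82 in control tumors. The 1D11 tumors lay close together inside the wide control range (-0.13 ± 0.09, adjusted p = 0.546). Orc4 had -0.11 ± 0.10 (adjusted p = 0.643), and 0.10 with the mean of its probe sets. All 46 intervals lay within 1.5-fold here, as did 88% of all genes.

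In irradiated tumors, 1D11_radiation was compared with radiation. No member and no other gene passed limma's test (0%), and 1 member had an unadjusted p under 0.05 (2.17%, against 5.4% of all genes). There were 19 higher and 27 lower members (41.3% and 58.7%, against 50.8% and 49.2% of all genes), with a median of -0.016 (all genes 0.003). The median turned positive without radiation replicate 2 (0.022) or without 1D11_radiation replicate 2 (0.029). Pole, the catalytic subunit of polymerase epsilon, had the smallest p, with 8.88, 8.73 and 8.91 in 1D11_radiation tumors, 8.63, 8.69 and 8.72 in radiation tumors, 8.92, 8.80 and 8.74 in 1D11 tumors, against 8.73, 8.65 and 8.73 in control tumors. Both 1D11-treated groups held the highest values, and the 1D11_radiation tumors were just above the radiation tumors (0.16 ± 0.07, adjusted p = 0.84). Lig1, the ligase that seals Okazaki fragments, had 10.43, 10.43 and 10.45 in 1D11_radiation tumors, 10.32, 10.40 and 10.26 in radiation tumors, 10.41, 10.45 and 10.30 in 1D11 tumors, against 10.43, 10.25 and 10.21 in control tumors. The 1D11_radiation tumors were within a narrow band above all radiation tumors (0.11 ± 0.07, adjusted p = 0.848). Together with Dut (0.12 ± 0.07, adjusted p = 0.84) and Rpa1, 4 members separated upward (8.7%, against 7.3% of all genes), and 0 did downward (6.12%).

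Pold3, another accessory subunit of polymerase delta, had 9.34, 9.05 and 9.25 in 1D11_radiation tumors, 9.35, 9.41 and 9.33 in radiation tumors, 9.30, 9.28 and 9.45 in 1D11 tumors, against 9.75, 9.22 and 9.44 in control tumors. Control replicate 1 was the highest and 1D11_radiation replicate 2 the lowest, with overlap between 1D11_radiation and radiation (-0.15 ± 0.12, adjusted p = 0.871). Orc2 had -0.15 ± 0.08 (adjusted p = 0.84) and Prim2 -0.13 ± 0.11 (adjusted p = 0.875). The 46 intervals were all within 1.5-fold, against 90% of all genes.

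Both treatments together, 1D11_radiation against control, gave 1 called member, Tk1, where 2.35% of all genes passed, and 5 members at an unadjusted p under 0.05 (10.9%, against 21.2%). The control tumors are the same as in the comparisons of radiation and of 1D11 with control. There were 14 higher and 32 lower members (30.4% and 69.6%, against 49.4% and 50.6% of all genes) with a median of -0.066 (all genes -0.003). In 45 of 46 the interval lay within 1.5-fold, against 84.3% of all genes. When control replicate 1 was left out there were 25 higher and 21 lower (51.6% of all genes were higher) with a median of 0.018 (all genes 0.006). After Tk1, the smallest p belonged to Mcm6 (-0.22 ± 0.07, adjusted p = 0.116), Prim2 (-0.26 ± 0.11, adjusted p = 0.207), Gins4 (-0.18 ± 0.08, adjusted p = 0.209) and Pole2 (-0.22 ± 0.09, adjusted p = 0.215). Separated groups were found downward in 6 members (13%, against 12% of all genes) and upward in 2, Tk1 and Orc5 (4.35%, against 14.7%).

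The interaction asks whether 1D11 altered the effect of radiation, as the effect under 1D11 minus the effect under 13C4. No member and no gene passed (0%), and 0 members had an unadjusted p under 0.05, against 7.48% of all genes. The members had 22 positive and 24 negative values (47.8% and 52.2%, against 42.2% and 57.8% of all genes) with a median of -0.004 (all genes -0.031), and without control replicate 1 they had 6 positive and 40 negative (42.7% of all genes were positive) with a median of -0.086 (all genes -0.034). With single tumors left out this median ran from -0.086 to 0.047, the highest without control replicate 2. Orc2 had the smallest adjusted p (-0.22 ± 0.11, adjusted p = 0.711), and Tk1 had -0.12 ± 0.12 (adjusted p = 0.889). In 44 of 46 members the interval of the interaction lay within 1.5-fold, against 75.9% of all genes, and the exceptions reached 1.56-fold in Rfc4 and 1.72-fold in Tyms. For 1D11 over both radiation states, no member passed (0.00785% of all genes did), 2 had an unadjusted p under 0.05 (Tk1 at 0.18 ± 0.06 and Pole at 0.14 ± 0.05, against 12.5% of all genes), and 23 were higher and 23 lower (59% and 41% of all genes). Without control replicate 1, 36 were higher (60.9% of all genes were) and the median was 0.062 (all genes 0.026), and without control replicate 2 the median was -0.044. All 46 intervals of this comparison lay within 1.5-fold, as did 95.4% of all genes.

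Other probe sets of the same genes allow a check of the values. Of the 46 members, 12 have a single probe set and 34 have several, which makes 102 in all, of which 90 were bright enough to be tested. In 9 of the 31 members with more than 1 tested probe set, at least 1 of the others had the opposite sign for radiation over both antibodies, and these were Mcm3, Mcm5, Mcm7, Cdc45, Rfc2, Orc2, Pola2, Pold3 and Pole2. With the mean of all probe sets of a gene in place of the brightest, Dut passed for radiation against control (-0.44, adjusted p = 0.0477) and over both antibodies (-0.38, adjusted p = 0.0107). Tyms is dim on all 4 of its probe sets, and its values lay close to the brightness limit or below it.

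Genes that work beside these 46 are described from lists that were also chosen with earlier results known. Of 30 measured genes among 31 other genes of the replication fork, 0 rose and 2 fell with radiation over both antibodies (7.26% of all genes passed in either direction). Timeless, which stabilizes stalled forks, fell by 0.22 ± 0.05 (adjusted p = 0.0303). It had 8.94, 8.96 and 8.92 in 1D11_radiation tumors, 8.61, 8.72 and 8.80 in radiation tumors, 9.13, 9.10 and 9.02 in 1D11 tumors, against 9.13, 8.94 and 8.95 in control tumors. The radiation tumors were the lowest and the 1D11_radiation tumors lay level with both lower control tumors, with the difference between 1D11_radiation and radiation at 0.23 ± 0.07 (adjusted p = 0.84). Dscc1, part of an alternative clamp loader, fell by 0.30 ± 0.08 (adjusted p = 0.039). Timeless lost its call without 1D11 replicate 1 or 2, radiation replicate 1 or 2 or any 1D11_radiation tumor (adjusted p up to 0.0784), and Dscc1 without any tumor other than control replicate 2 or 3 (up to 0.0868). When control replicate 1 was left out, 1 gene of this list rose, Dbf4, and 2 fell, Timeless and Pold4, where 7.62% of all genes passed.

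With radiation over both antibodies, 7.26% of all genes passed in either direction. Of 30 measured genes among 32 other genes of nucleotide synthesis, 0 rose and 1 fell. This was Dguok, the mitochondrial kinase of purine deoxynucleosides, with 9.34, 9.17 and 9.23 in 1D11_radiation tumors, 9.24, 9.34 and 9.49 in radiation tumors, 9.46, 9.71 and 9.57 in 1D11 tumors, against 9.89, 9.66 and 9.56 in control tumors. Control replicate 1 was the highest and the 3 1D11_radiation tumors were below all unirradiated tumors. Dguok fell by 0.34 ± 0.07 over both antibodies (adjusted p = 0.021; 0.0583 at most, lost without 1D11 replicate 2, radiation replicate 1 or 1D11_radiation replicate 3) and by 0.45 ± 0.10 in 1D11_radiation against control tumors (adjusted p = 0.0484). The call against control was lost without any single tumor other than control replicate 3 or radiation replicate 3 (adjusted p up to 0.134).

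Of 30 tested regulators of the passage from G1 into S phase among 33, 3 rose and 2 fell with radiation over both antibodies. Of all genes, 7.26% passed there in either direction. Cdkn2c, an inhibitor of the kinases that work with D-type cyclins, had 9.67, 9.59 and 9.62 in 1D11_radiation tumors, 9.47, 9.53 and 9.63 in radiation tumors, 10.44, 10.34 and 10.16 in 1D11 tumors, against 10.48, 10.07 and 9.98 in control tumors. All irradiated tumors were below all unirradiated ones, and Cdkn2c fell by 0.66 ± 0.09 (adjusted p = 0.00313, and 0.0127 at most with any single tumor left out). Myc, a transcription factor that drives growth and entry into S phase, had 12.56, 12.43 and 12.73 in 1D11_radiation tumors, 12.71, 12.49 and 12.47 in radiation tumors, 12.16, 12.06 and 12.21 in 1D11 tumors, against 12.37, 12.13 and 12.31 in control tumors. All irradiated tumors were above all unirradiated ones, and Myc rose by 0.36 ± 0.07 (adjusted p = 0.0145). Ccnd1, a D-type cyclin, rose by 0.32 ± 0.06 (adjusted p = 0.0133), with all irradiated tumors above all unirradiated ones. Myc and Ccnd1 kept their calls without any single tumor (adjusted p up to 0.0428). When control replicate 1 was left out, 5 genes of this list rose, with Ccne1 and Cdkn1a added, and 2 fell. The share of all genes that passed in that fit is given above with the other replication fork genes.

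Ccnd2, another D-type cyclin, rose by 0.32 ± 0.07 (adjusted p = 0.0193), and Cdkn1b, a broad inhibitor of cyclin-dependent kinases, fell by 0.24 ± 0.06 (adjusted p = 0.0299). Ccnd2 lost its call without 1D11 replicate 2, radiation replicate 1 or 1D11_radiation replicate 3 (up to 0.0513), and Cdkn1b without 8 of the 12 tumors (up to 0.0801), all but control replicate 1, 1D11 replicate 3, radiation replicate 3 and 1D11_radiation replicate 1. E2f1, an activator of replication genes, had -0.07 ± 0.05 (adjusted p = 0.448), and Ccne1, a cyclin of the G1/S transition, had 0.21 ± 0.09 (adjusted p = 0.197; 0.0195 without control replicate 1). E2f8, a repressor of the E2F family, rose by 0.45 ± 0.09 in radiation against control tumors (adjusted p = 0.0264), with 10.99, 10.66 and 10.96 in 1D11_radiation tumors, 11.20, 11.11 and 11.20 in radiation tumors, 10.97, 11.07 and 10.998 in 1D11 tumors, against 10.70, 10.75 and 10.72 in control tumors. The radiation tumors were above every other tumor and the control tumors were close together near the bottom. In 1D11_radiation against radiation tumors E2f8 had -0.30 ± 0.09 (adjusted p = 0.84), and its interaction was -0.59 ± 0.12 (adjusted p = 0.281). Its call was lost without control replicate 2 or 3 or radiation replicate 1 or 2 (adjusted p up to 0.104). Rb1, the retinoblastoma protein that holds E2F factors in check, rose by 0.51 ± 0.12 in 1D11_radiation against control tumors (adjusted p = 0.0485), and the call was lost without any single tumor other than control replicate 2 or radiation replicate 3 (up to 0.131).

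Of 28 measured mitosis genes among 29, 22 had positive and 6 negative changes with radiation over both antibodies, with a median of 0.097 (45.3% of all genes had positive changes). In limma 0 of them were called, and 3 had an unadjusted p under 0.05. When control replicate 1 was left out, 26 were positive with a median of 0.154, and 6 rose (Ccnb2, Aurka, Cenpa, Birc5, Prc1 and Ube2c), where 7.62% of all genes passed. Ccnb2, a mitotic cyclin, rose by 0.43 ± 0.08 in 1D11_radiation against control tumors (adjusted p = 0.0254), a call lost without any 1D11_radiation tumor (up to 0.0904). It had 11.02, 11.07 and 11.11 in 1D11_radiation tumors, 10.86, 11.01 and 10.84 in radiation tumors, 10.97, 10.92 and 10.98 in 1D11 tumors, against 10.75, 10.65 and 10.51 in control tumors. All 3 1D11_radiation tumors were above all other tumors, and all control tumors were below all others. Mki67, the Ki-67 proliferation antigen, had 0.06 ± 0.10 over both antibodies (adjusted p = 0.762).

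Of 16 genes of p53 arrest and DNA damage, 4 rose and 1 fell with radiation over both antibodies (7.26% of all genes passed). Mdm2, the p53 inhibitor that p53 itself induces, had 10.92, 10.80 and 10.89 in 1D11_radiation tumors, 10.94, 10.83 and 10.88 in radiation tumors, 10.36, 10.49 and 10.59 in 1D11 tumors, against 9.94, 10.41 and 10.47 in control tumors. All irradiated tumors were above all unirradiated ones, and Mdm2 rose by 0.50 ± 0.09 (adjusted p = 0.00921). Pmaip1, a pro-apoptotic target, rose by 1.26 ± 0.25 (adjusted p = 0.0156), the nuclease gene Aen by 0.30 ± 0.06 (adjusted p = 0.0128) and the death receptor gene Tnfrsf10b by 0.24 ± 0.06 (adjusted p = 0.0281), while Sesn1 fell by 0.43 ± 0.08 (adjusted p = 0.0109). Tnfrsf10b lost its call without 6 of the 12 tumors (up to 0.0712), which were 1D11 replicates 2 and 3, radiation replicate 1 and the 3 1D11_radiation tumors. Cdkn1a, the p53-induced inhibitor of cyclin-dependent kinases, had 12.52, 12.51 and 12.51 in 1D11_radiation tumors, 12.58, 12.52 and 12.54 in radiation tumors, 12.11, 12.04 and 12.004 in 1D11 tumors, against 10.88, 12.11 and 12.28 in control tumors. Control replicate 1 was far below every other tumor, and all irradiated tumors were above all unirradiated ones (0.63 ± 0.19, adjusted p = 0.072). Cdkn1a was called without control replicate 1 (adjusted p = 0.00297) or without control replicate 3. When control replicate 1 was left out, 9 genes of this list rose and 1 fell, and the share of all genes that passed in that fit is given above with the mitosis genes.

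**Figure D5:**
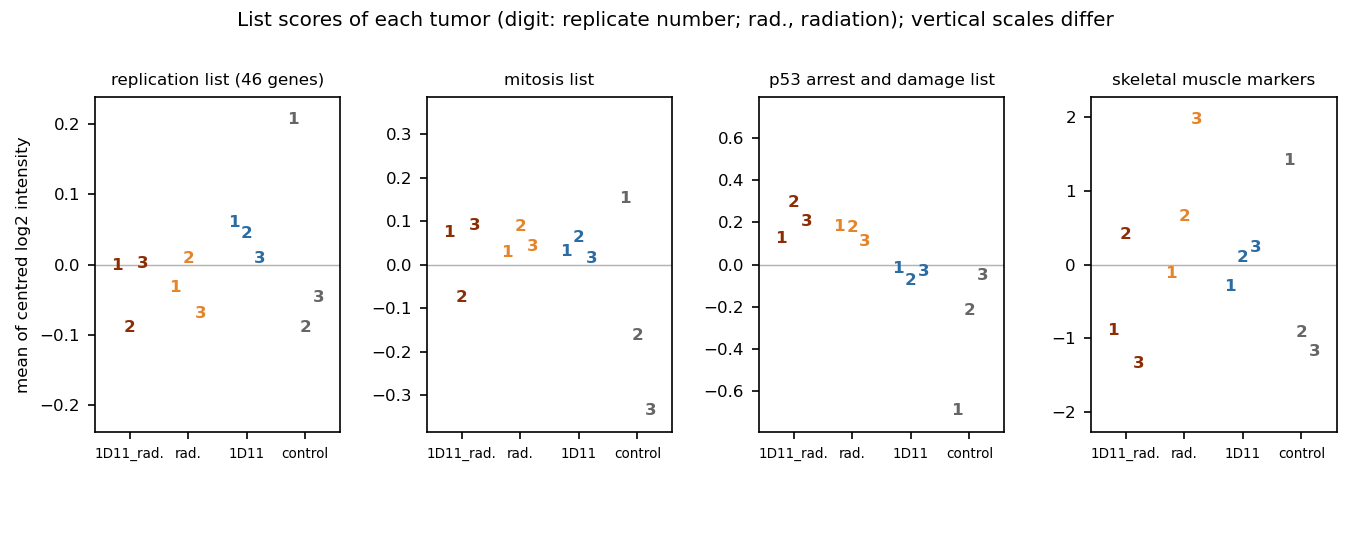
Each digit is a tumor, placed by its group (1D11_radiation, radiation, 1D11, control) and by its list score, the mean over the list of each gene's log2 intensity minus its mean over the 12 tumors, with a vertical scale of its own in each panel. Control replicate 1 has the highest replication score (0.207) and the lowest p53 score (-0.689), and all irradiated tumors have higher p53 scores than all unirradiated ones.

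Markers of host cells also differed with radiation over both antibodies, where 7.26% of all genes passed in either direction. Of 13 tested endothelial markers among 14 measured, 5 fell and 0 rose. When control replicate 1 was left out, 10 fell and 0 rose, and the share of all genes that passed in that fit is given above with the mitosis genes. Summed linear intensities of the endothelial markers ran from 2526 to 2689 in 1D11_radiation tumors and from 2267 to 2340 in radiation tumors, against 2525 to 3060 in 1D11 tumors and 2595 to 3652 in control tumors. Of 14 fibroblast and pericyte markers, 4 fell and 0 rose, with sums from 33606 to 50238 in 1D11_radiation tumors and from 33650 to 52410 in radiation tumors, against 48546 to 51316 in 1D11 tumors and 46829 to 57383 in control tumors. Of 10 tested T and NK cell markers among 14 measured, 4 rose and 0 fell, with sums from 1036 to 1516 in 1D11_radiation tumors and from 1287 to 1419 in radiation tumors, against 948 to 1106 in 1D11 tumors and 809 to 914 in control tumors. Other host cell lists had at most 1 called gene in each direction. All 1D11 tumors stood apart in the mast cell list, but only 1D11 replicates 1 and 3 did in the keratinocyte list. Mast cell sums ran from 535 to 956 in 1D11_radiation, 859 to 1135 in radiation, 2282 to 2486 in 1D11 and 679 to 1480 in control tumors. Keratinocyte sums ran from 349 to 358, 365 to 385, 396 to 3150 and 350 to 414 in the same order. The lowest of the 1D11 tumors, 1D11 replicate 2 at 396, lay within the control range. Of 9 measured keratinocyte markers, 3 were bright enough to be tested. The part of these cells in the values of the replication genes was not tested.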

How the data were processed

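RNA of 12 LLC tumors was measured on 1-colour Affymetrix mouse arrays, 1 array per tumor. The deposited values are linear intensities of 45101 probe sets. Their array medians lie between 62.3 and 66.1, so they were taken as already normalized between arrays and were not normalized again. Which background correction and normalization the authors ran is not given in the sources used here. Probe sets were named from the platform table given for the array: 34945 carry 1 gene symbol and 932 carry several, which were not used. Intensities were log2-transformed without an offset, the probe set with the highest mean was kept for each of 18193 genes, and the lowest 30% of gene means (below 5.37) were left out. The remaining 12735 genes were fitted with limma 3.58.1 in R 4.3.3 as 4 groups of 3 tumors (8 residual and 3.11 prior degrees of freedom), with 8 contrasts, and p-values were adjusted over all 12735 genes (Benjamini-Hochberg). A gene is called at an adjusted p under 0.05; errors are the model's SE and values by group rest on 3 tumors. The number of arrays limits the precision.

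The members and the gene lists were chosen with earlier results of these data known. In each of the 4 comparisons that differ in 1 factor, the 3 higher and 3 lower members with the smallest p were named, with the genes called in each list; genes outside this were named after their values were seen. The script was tested on simulated data. Alternatives were quantile normalization, filters, offset, probe set choice, array weights, a replicate block, the compared groups alone and each tumor left out.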

Additional observations from a re-analysis of the deposited data

How the results depend on the processing

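Across alternatives, the count of called replication genes for radiation over both antibodies, 1 as reported, was 3 with quantile normalization (7.62% of all genes called there, against 7.26% as reported), 3 with the 50% filter (11.1%), 2 with the mean of probe sets (6.42%), 2 with an offset of 32 (8.11%), 2 with array weights (17.1%) and 0 without a filter (4.19%). With the replicate number as a block it was 0 for radiation over both antibodies (5.17% of all genes) and 0 for 1D11_radiation against control (0.667%), where Tk1 had 0.42 (adjusted p = 0.0685). The labels do not say whether the numbers pair the tumors. Correlations of deviations from group means over 18 same-number pairs ran from -0.31 to 0.27, with 3 above 0.1. These cannot decide whether the numbers mark a pairing, since no pairs of unlike number were set beside them. The count for 1D11_radiation against control was also 0 without a filter and 0 with only the compared groups fitted. For radiation against control, where 0 were called, it was 1 with the mean of probe sets and 1 with array weights. Leaving out single tumors gave 0 to 2 called genes for radiation over both antibodies, 0 to 1 for 1D11_radiation against control, 0 to 1 for radiation against control, and a median change of -0.040 to 0.131 for 1D11 against control. Added after seeing the data, testing each probe set separately gave 2 called genes for radiation over both antibodies, where 6.17% of 22900 probe sets passed. Leaving out both control replicate 1 and radiation replicate 3, also added, gave medians of 0.131 for 1D11 against control, -0.099 for the interaction and 0.033 for radiation against control, with 2 called genes there and 2 over both antibodies. For counts given here without a share, calls over all genes are given only as ranges across alternatives, below.

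Among the values followed through every alternative, directions reversed in 3, none of them called. With the mean of probe sets these were Orc4 for 1D11 against control (0.10) and Pola1 for 1D11_radiation against 1D11 (-0.10). The third was Mki67 for radiation over both antibodies (0.06 as reported, from -0.01 without control replicate 3 to 0.14 without control replicate 1). In addition, 5 of 46 members changed sign for radiation over both antibodies without control replicate 1, Mcm5 and Fen1 among them. The cause of these shifts was not tested. Over all genes, counts of calls ranged from 6 to 890 for radiation against control (304 as reported), from 0 to 59 for 1D11 against control (2), from 1 to 1491 for 1D11_radiation against 1D11 (10), from 0 to 6 for 1D11_radiation against radiation (0), from 1 to 923 for 1D11_radiation against control (299), from 0 to 122 for the interaction (0), from 407 to 2176 for radiation over both antibodies (925) and from 0 to 3 for 1D11 over both radiation states (1).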
